A study of Homo sapiens with 8 samples.

Results

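EZH2 occupancy was examined at the start sites of 5 genes of the B-cell transcription program, BCL11A, PAX5, EBF1, BCL6 and CIITA. All EZH2 peaks lying within 10 kb of these hg18 start sites were taken, which gave 35 of the 19721 peaks in the 4 peak lists. When peaks sharing at least 1 bp were joined across lists, the 35 peaks formed 16 regions of 11858 in all. The genes were chosen by the EZH2 peaks they carried or lacked in these same lists, so presence, height and width are given below as a description and no test was run on them.

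The lists come from ChIP-seq with an anti-EZH2 antibody, in which bound chromatin fragments are recovered and sequenced, in a pair of myeloma lines derived from t(4;14)+ KMS11 cells. NTKO cells keep the rearranged IGH-MMSET allele and have lost the wild-type copy, giving high MMSET. TKO cells have lost the rearranged allele and keep 1 wild-type copy of MMSET, giving low MMSET. Each line had 2 EZH2 samples, run 1 and run 2, which the study describes as separate biological replicates, and 4 input samples served the authors as background for peak calling. Both lines therefore lack 1 MMSET allele, no drug or other treatment is named for any sample, and the sources used here do not say whether each line is a single clone. Peak lists cannot show whether the cells carry plasma cell markers, and expression was not analysed here.

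EZH2 is the catalytic subunit of Polycomb Repressive Complex 2, which places trimethylation on lysine 27 of histone H3 at silent genes, often over CpG-rich promoters. EBF1 and PAX5 establish and hold B-lineage identity, BCL11A is a zinc finger repressor needed for early lymphoid development, BCL6 is the repressor that drives the germinal center reaction, and CIITA is the coactivator that switches on MHC class II genes. When a B cell becomes a plasma cell, the cell from which myeloma arises, much of this program is shut down, and PAX5, BCL6 and CIITA are among the genes repressed on that path.

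The promoter sequences of BCL11A, PAX5 and BCL6 are shown because peaks lay at or close to the start sites of these genes. They are the 250 bases before the outermost start of each gene in RefSeq on GRCh38.p14, all on the minus strand, with every CG dinucleotide in capitals. They lie at chr2:60553925-60554174, chr9:37034269-37034518 and chr3:187745469-187745718, and the distance between these starts and the hg18 start sites used for the peaks was not determined.
BCL11A: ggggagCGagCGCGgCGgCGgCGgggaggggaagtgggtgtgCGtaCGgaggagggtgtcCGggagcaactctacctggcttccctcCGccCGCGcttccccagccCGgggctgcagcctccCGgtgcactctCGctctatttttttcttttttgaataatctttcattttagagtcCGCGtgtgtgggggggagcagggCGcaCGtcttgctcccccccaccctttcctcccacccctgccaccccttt
PAX5: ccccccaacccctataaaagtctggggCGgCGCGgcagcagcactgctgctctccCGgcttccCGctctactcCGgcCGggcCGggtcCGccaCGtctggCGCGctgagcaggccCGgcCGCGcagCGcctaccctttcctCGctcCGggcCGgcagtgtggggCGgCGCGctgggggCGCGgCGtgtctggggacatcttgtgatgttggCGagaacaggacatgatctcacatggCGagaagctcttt
BCL6: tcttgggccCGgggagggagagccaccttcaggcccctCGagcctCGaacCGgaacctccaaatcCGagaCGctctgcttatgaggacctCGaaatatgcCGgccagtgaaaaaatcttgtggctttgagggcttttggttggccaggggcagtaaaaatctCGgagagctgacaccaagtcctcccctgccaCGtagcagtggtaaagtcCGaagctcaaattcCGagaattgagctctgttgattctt
The stretches held 19, 27 and 12 CG dinucleotides, against a median of 11 over all 35116 promoter stretches of the same length in the RefSeq table. The PAX5 stretch had more CG than 82.3% of them, the BCL11A stretch more than 65.4% and the BCL6 stretch more than 51.5%. Runs of GGGGG, counted on both strands and without overlap, occurred 2 times in BCL11A, 2 times in PAX5 and 0 times in BCL6, and 55.3% of all stretches held at least 1. The letters CCCTC, counted in the same way, occurred 3 times in BCL11A and 3 times in BCL6 and 0 times in PAX5, with at least 1 in 66.6% of all stretches. A CCCTC copy can share bases with a CG or a G-run, and a match of letters is not a binding site. The outermost start of EBF1 and any promoter of CIITA were not matched in that table.

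The 4 lists differed in length. They held 2972 and 10582 peaks in NTKO runs 1 and 2, and 651 and 5516 in TKO runs 1 and 2. The number of reads behind each list is unknown here, and whether heights were scaled for sequencing depth is not given in the sources used here, so heights are compared between lists with that limit. A gene without a peak in a list is one that did not reach the authors' threshold, a −log10 p of 15 and a 2-fold difference from input, and EZH2 may still have been present there. The heights of peaks with a −log10 p under 20 give a scale for this. Their median heights were 46 and 52 reads in NTKO runs 1 and 2 and 41 and 53 reads in TKO runs 1 and 2. Such peaks were a large part of each list. They numbered 1561 and 4104 in NTKO runs 1 and 2 and 406 and 2038 in TKO runs 1 and 2. A called peak can also be false. Within each run the study reported a higher false discovery rate, the expected share of false peaks, for the TKO list than for the NTKO list. This limit bears on the peaks at BCL11A and EBF1, which were called in TKO lists alone. It bears as well on PAX5 in TKO run 1, where the peaks had a −log10 p of only 17.2 and 19.0. Whether any given peak was false was not tested.

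Of the 5 genes, 4 had a peak in at least 1 list, and they fell into different patterns. BCL11A had peaks in both TKO samples and in neither NTKO sample. EBF1 had a single peak, in TKO run 2. PAX5 and BCL6 had peaks in all 4 samples and were taller and more widely covered in NTKO cells within each run. Bases covered by all peaks of a list were likewise more in the NTKO list of each run. CIITA had no peak within 10 kb in any list. In run 2, which the study used downstream, a peak was present at 2 of the 5 genes in NTKO and at 4 in TKO cells, and in run 1 the numbers were 2 and 3. The lists as a whole ran the other way, with more NTKO than TKO peaks in each run. The study likewise reported EZH2 at the promoters of more genes in NTKO than in TKO cells. The share of all start sites with a peak was not computed, since no hg18 annotation was used. The genes were chosen from these lists, so the counts are not read as a preference of either line.

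**Figure D1:**
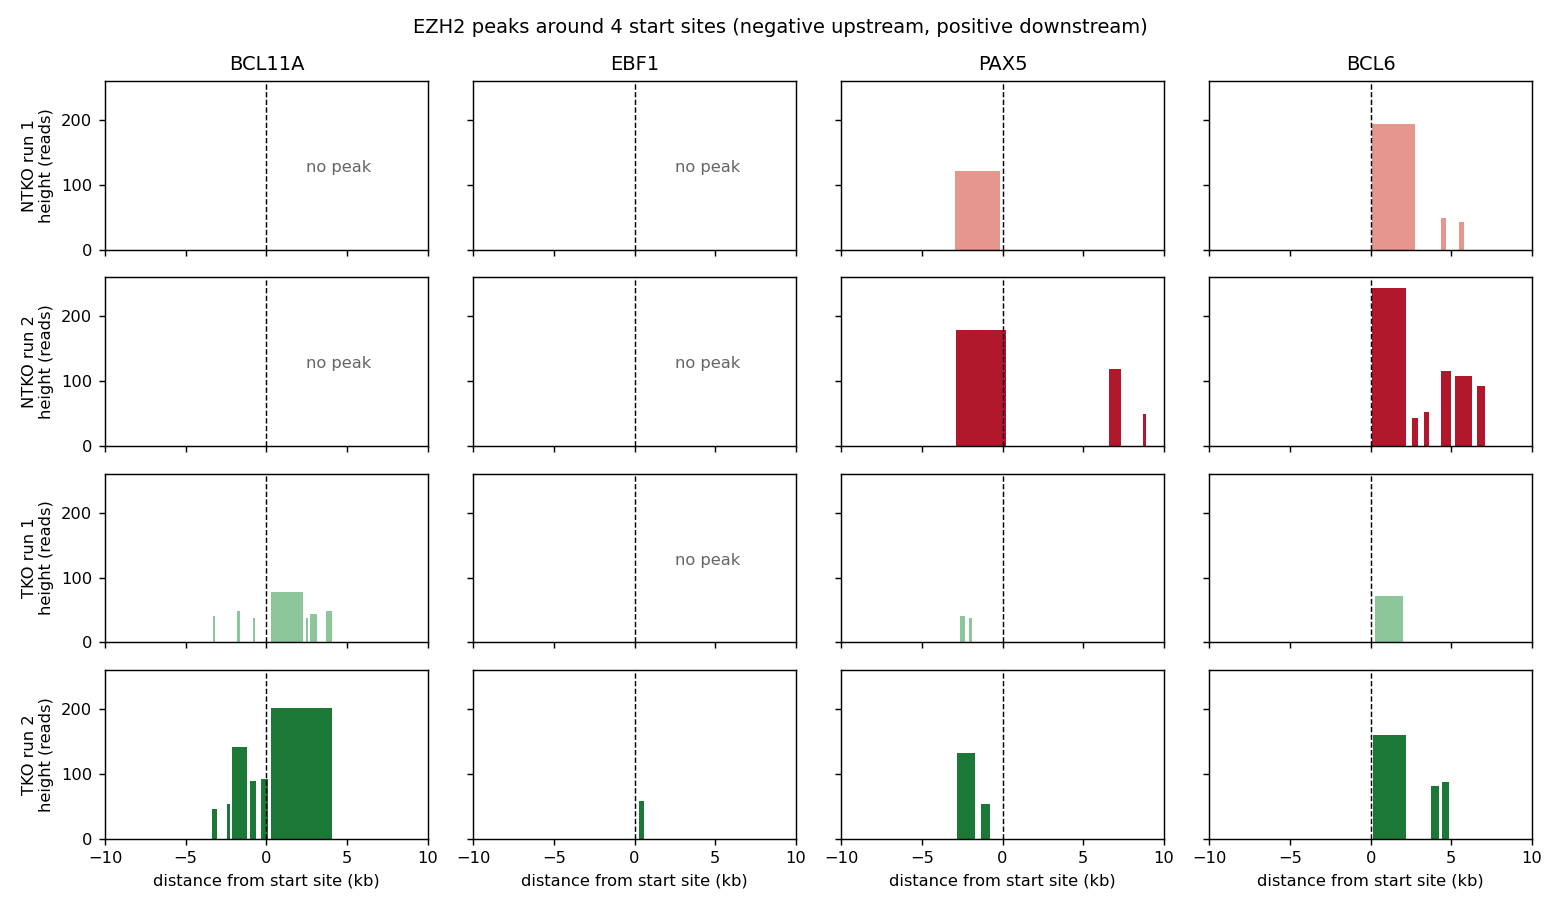
EZH2 peaks around the start sites of BCL11A, EBF1, PAX5 and BCL6 (columns) in each of the 4 samples (rows). The horizontal axis is the distance from the hg18 start site in kb along the direction of transcription, the dashed line is the start site, and each bar spans a peak and reaches the height at its summit in reads. BCL11A carries peaks only in the TKO samples, where the tallest reached 78 and 202 reads, while the tallest peak of BCL6 is present in all 4 samples.

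BCL11A, on the minus strand of hg18 chromosome 2, showed the most extensive TKO signal among the 5 genes. TKO run 1 had 7 peaks within 10 kb, with heights from 37 to 78 reads, and TKO run 2 had 6, with heights from 46 to 202 reads. Both NTKO samples had 0 peaks in the same window. The TKO peaks covered 3493 bp of it in run 1 and 6012 bp in run 2. In each run the TKO list held fewer peaks than the NTKO list, and the number of reads behind each list is unknown.

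The tallest BCL11A peak lay just downstream of the start site, inside the gene. In TKO run 2 it ran from 60630054 to 60633884, which is 253 to 4083 bp downstream, and was 3831 bp wide and 202 reads high, with a −log10 p of 61.5. In TKO run 1 the same stretch was called as 4 separate peaks, and the tallest of them ran from 60631875 to 60633884 with a height of 78 reads and a −log10 p of 37.0. The peaks of both runs ended at the same base nearest the start site, and their summits lay 54 bp apart. Within its own list the peak was taller than 92.0% of peaks in run 1 and 99.3% in run 2.

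Upstream of BCL11A the signal continued as a row of shorter peaks. In TKO run 2 they reached to 3368 bp upstream, and the tallest, from 60635351 to 60636270, was 142 reads high. TKO run 1 had a peak of 49 reads inside that region, from 60635760 to 60635973. In TKO run 2 a peak of 92 reads, from 60634061 to 60634490, covered the start site itself, and run 1 had no peak there. The window thus held 6 regions, of which 4 were found in both TKO runs and 2 in TKO run 2 alone. In the shared regions, the run 1 peaks from 60634864 to 60634990 and from 60637336 to 60637474 had only 37 and 40 reads. The median height of that list's peaks with a −log10 p under 20 was 41 reads.

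Regions shared by the TKO runs and absent from both NTKO lists made up 0.253% of all 11858 regions, 30 in number, and 4 of the 30 were these BCL11A regions. When peaks within 10 kb of each other were joined into domains, the share was 0.674% of 3410 domains. BCL11A was chosen for this contrast, so its pattern is not read against these shares. Of the 6 TKO run 2 peaks, 4 were taller than any NTKO run 2 peak with a −log10 p under 20, the tallest of which had 83 reads, as were 26.1% of all TKO run 2 peaks. Of the 7 TKO run 1 peaks, 1 was taller than any such peak of NTKO run 1, the tallest of which had 64 reads, as were 13.2% of all TKO run 1 peaks.

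The surroundings of BCL11A were not empty in NTKO cells. NTKO run 2 had a peak of 83 reads from 60548354 to 60548615, 85.5 kb downstream of the start site, and TKO run 2 had a peak of 118 reads over the same place, from 60548324 to 60548728. RefSeq gives BCL11A a length of 103.4 kb, so by distance this peak fell within the gene. The order of the lines was thus the same there, but NTKO cells did have a called peak. NTKO run 2 also had a peak of 81 reads 28.3 kb upstream of the start site, where TKO run 2 had no peak. Neither run 1 list had a peak from 10 to 500 kb of the start site. The BCL11A peaks made up 7 of the 44 peaks on chromosome 2 in TKO run 1 and 6 of 201 in TKO run 2, while NTKO cells had 108 and 389 peaks on that chromosome. Gene copy number in the lines was not tested.

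EBF1, on the minus strand of chromosome 5, had 1 peak in 1 sample. It ran from 158458797 to 158459087 in TKO run 2, 279 to 569 bp downstream of the start site, with a height of 59 reads and a −log10 p of 22.7. The height was above 34.0% of the peaks in that list. NTKO run 1, NTKO run 2 and TKO run 1 had no peak within 500 kb of the start site, and TKO run 2 had no other. Regions found in TKO run 2 alone made up 10.6% of all regions. The EBF1 peak was therefore not found in TKO run 1, and its height was below the 83 reads that the tallest NTKO run 2 peak with a −log10 p under 20 reached.

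**Figure D2:**
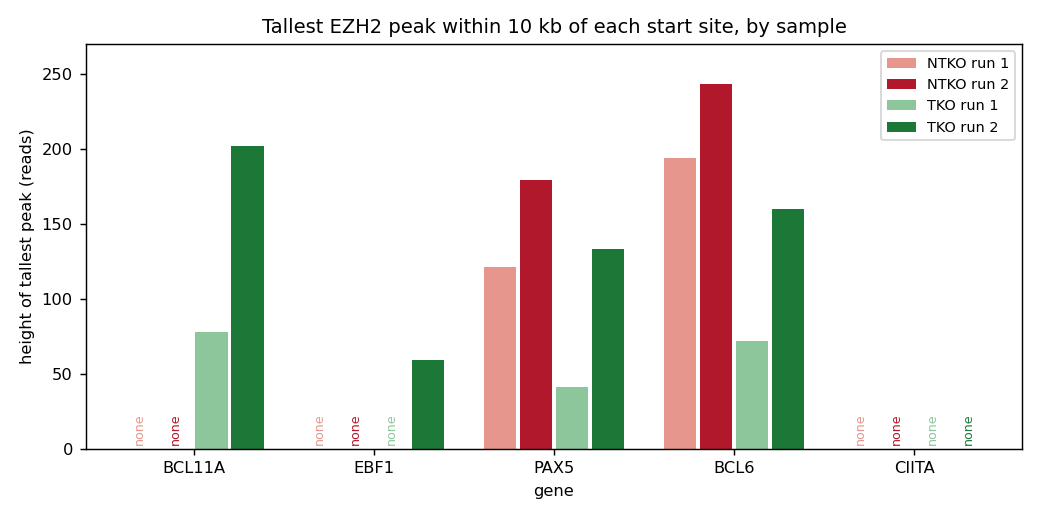
Height in reads of the tallest EZH2 peak within 10 kb of each start site, with 1 bar for each of the 4 samples and "none" where a list has no peak. BCL11A and EBF1 have bars in TKO samples alone, PAX5 and BCL6 in all 4, and the NTKO bar is the higher one within each run for PAX5 and BCL6.

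PAX5, on the minus strand of chromosome 9, carried its main peak upstream of the start site. The tallest peak was 121 and 179 reads high in NTKO runs 1 and 2 and 41 and 133 reads high in TKO runs 1 and 2. The NTKO sample was the taller one in each run, but TKO run 2 was taller than NTKO run 1, so the lines overlapped. NTKO run 2 had a peak from 37024274 to 37027390 that was 3117 bp wide and covered the start site, from 202 bp downstream to 2914 bp upstream. In NTKO run 1 the peak ran from 37024637 to 37027398 and stopped 161 bp short of the start site.

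In TKO cells the PAX5 signal was split and kept to the upstream part of this stretch. TKO run 2 had peaks from 37025284 to 37025784 with 53 reads and from 37026200 to 37027293 with 133 reads, the nearer of which ended 808 bp upstream of the start site. TKO run 1 had peaks of 37 and 41 reads between 37026379 and 37027083, with a −log10 p of 17.2 and 19.0. Their heights were above 8.14% and 30.9% of the peaks in that list. The run 1 ratios at PAX5 rest on these peaks. The summits of the lines lay 26 bp apart in run 2, at 2151 and 2125 bp upstream, and 450 bp apart in run 1.

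Bases covered within 10 kb of the PAX5 start site were 2762 and 3998 in NTKO runs 1 and 2 and 479 and 1595 in TKO runs 1 and 2. Both NTKO values were above both TKO values. The NTKO to TKO ratio of covered bases was 5.77 in run 1 and 2.51 in run 2. All peaks of each list together covered 2.06 and 7.86 Mb in NTKO runs 1 and 2. In TKO runs 1 and 2 they covered 0.307 and 3.38 Mb. Wider NTKO coverage was therefore common to the lists as a whole. For the tallest height the log2 ratio was 1.56 in run 1 and 0.43 in run 2, a mean of 0.99 ± 0.80 (SD, n = 2 runs). This SD depends on pairing the lines by run number. Crossed, the ratio was -0.14 for NTKO run 1 with TKO run 2 and 2.13 for NTKO run 2 with TKO run 1. NTKO run 2 also had 2 peaks further into the gene, of 118 reads from 37017170 to 37017852 and of 49 reads from 37015606 to 37015803. The latter was the peak farthest from a start site among those taken, 8673 bp away at its nearer edge. No other list had a peak there, and regions in NTKO run 2 alone made up 57.7% of all regions.

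BCL6, on the minus strand of chromosome 3, had the tallest EZH2 peak found in any of the windows, in NTKO run 2. Its tallest peak was 194 and 243 reads high in NTKO runs 1 and 2 and 72 and 160 reads high in TKO runs 1 and 2. Here both NTKO samples were above both TKO samples. The peak was taller than 99.4% and 99.7% of peaks in the NTKO lists and 90.0% and 97.7% in the TKO lists. Its −log10 p was 136 in NTKO run 2 and 82.3 in TKO run 2.

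The BCL6 peak began next to the start site and lay downstream of it in each list. It ran from 188943960 to 188946080 in NTKO run 2 and from 188943959 to 188946025 in TKO run 2, so that the widths, 2121 and 2067 bp, were close while the heights were not. Its near edge was 96 and 89 bp downstream of the start site in NTKO runs 1 and 2, and 257 and 144 bp in TKO runs 1 and 2. The summits of the lines lay 13 bp apart in run 2. In run 1 the NTKO peak was 2661 bp wide and the TKO peak 1738 bp, and the summits lay 498 bp apart.

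Beyond this peak, NTKO cells had more peaks further into BCL6. Regions from 188939079 to 188939557 and from 188942572 to 188942889 were found in NTKO run 2 alone, as were 57.7% of all regions. A region from 188939881 to 188940934, 5235 to 6288 bp downstream, had 43 and 108 reads in NTKO runs 1 and 2 and no peak in TKO cells. The 43 reads were below 46, the median height of NTKO run 1 peaks with a −log10 p under 20. Regions found in both NTKO runs and neither TKO run made up 4.7% of all regions. A region from 188941215 to 188941836 had 49 and 115 reads in NTKO runs 1 and 2 and 87 in TKO run 2. TKO run 2 in turn had a peak of 82 reads from 188941940 to 188942415 that no NTKO list shared. Of the 6 BCL6 regions, 1 was in all 4 lists, and the share of such regions over the genome was 2.75%.

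Covered bases near BCL6 were 3308 and 4891 in NTKO runs 1 and 2 and 1738 and 3007 in TKO runs 1 and 2. Both NTKO values were above both TKO values, by ratios of 1.90 in run 1 and 1.63 in run 2. All peaks of the lists together covered 2.06 Mb in NTKO and 0.307 Mb in TKO run 1. In run 2 they covered 7.86 and 3.38 Mb. In each run the lists as a whole thus differed by a larger ratio than BCL6 did. The log2 height ratio was 1.43 in run 1 and 0.60 in run 2, a mean of 1.02 ± 0.58 (SD, n = 2 runs). This SD too depends on the pairing by run number. Crossed, the ratio was 1.755 for NTKO run 2 with TKO run 1 and 0.278 for NTKO run 1 with TKO run 2. NTKO run 1 was thus taller than TKO run 2 at BCL6, and its list was the shorter one. Outside the windows the nearest peak to the BCL6 start site in any list was 190 kb away and the nearest to the PAX5 start site 263 kb away.

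**Figure D3:**
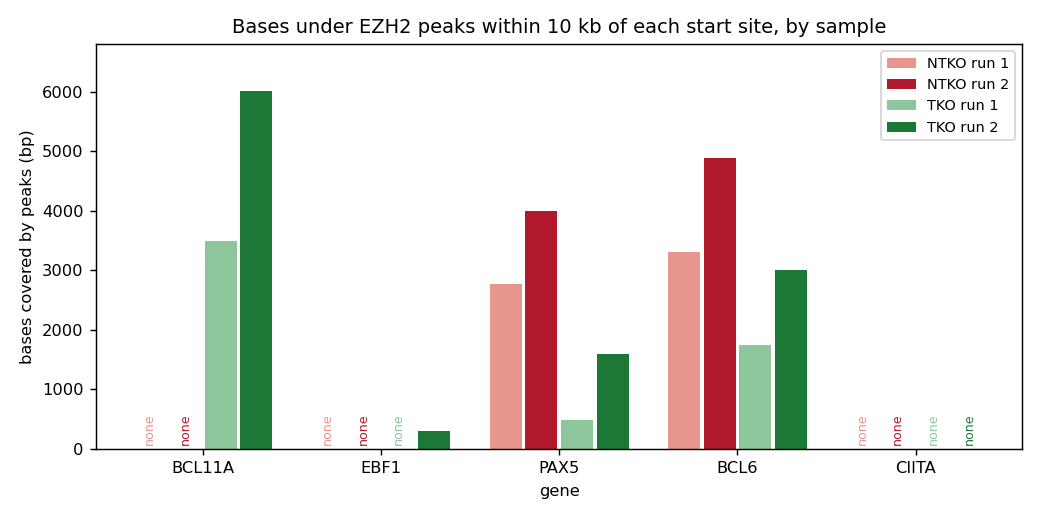
Bases under EZH2 peaks within 10 kb of each start site, in bp, with 1 bar for each of the 4 samples and "none" where a list has no peak. The NTKO bars are above the TKO bars for PAX5 and BCL6, and BCL11A has 3493 and 6012 bp in the TKO samples.

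PAX5 and BCL6 were the members with a region in all 4 lists, and their NTKO to TKO ratios were set beside those of all 326 such regions. The median log2 height ratio over the 326 was 0.90 in run 1 and 0.12 in run 2, and 71.2% of them were taller in NTKO cells in both runs. A taller NTKO peak was therefore common to most of these regions. Counted from the largest ratio, BCL6 ranked 42 in run 1 and 26 in run 2, and PAX5 ranked 24 in run 1 and 60 in run 2. With heights divided by the median height of the 326 regions in each sample, the run 2 log2 ratio was 0.36 for BCL6 and 0.19 for PAX5. The runs also differed within a line. From run 1 to run 2 the log2 height rose by 1.70 at PAX5 and 1.15 at BCL6 in TKO cells, beside a median of 1.47 over the 326 regions, and by 0.56 and 0.32 in NTKO cells, beside a median of 0.62.

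**Figure D4:**
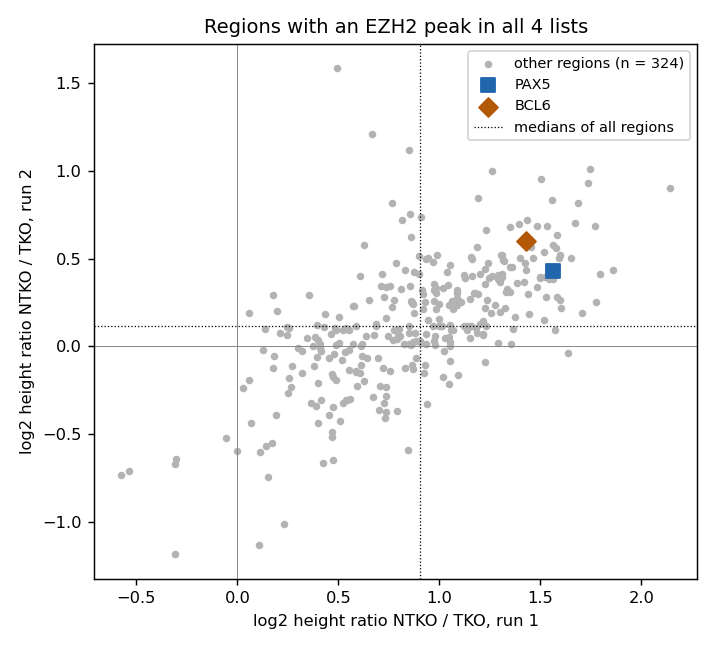
Log2 ratio of NTKO to TKO peak height in run 1 (horizontal axis) and run 2 (vertical axis) for the regions with an EZH2 peak in all 4 lists. Gray points are the other 324 regions, dotted lines the medians over all 326, 0.90 and 0.12, and PAX5 and BCL6 lie to the right of and above both medians.

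CIITA, on the plus strand of chromosome 16, had no peak within 10 kb in any of the 4 samples. The nearest was a peak of 72 reads in NTKO run 2, 378 kb downstream, and no other list had a peak within 500 kb. CIITA is transcribed from several alternative promoters, and the start site used here is 1 of them. Chromosome 16 as a whole held 310 and 1059 peaks in NTKO runs 1 and 2 and 46 and 500 in TKO runs 1 and 2.

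Over the 5 windows together, peaks covered 6070 and 8889 bp in NTKO runs 1 and 2 and 5710 and 10905 bp in TKO runs 1 and 2. NTKO and TKO values overlapped. The sum joined genes that moved in opposite directions, since BCL11A alone gave 6012 of the 10905 bp in TKO run 2. The median log2 height ratio over PAX5 and BCL6, the genes with a peak in both lines, was 0.52 in run 2 and 1.496 in run 1.

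Regions elsewhere with heights most like those of the members were sought among regions found in the same lists. The region nearest to the tallest BCL11A region was on chromosome 1 from 146542819 to 146543201, with 94 reads in TKO run 1 and 199 in TKO run 2, and a root mean square difference of 0.19 on the log2 scale over 2 samples. For PAX5 it was on chromosome 12 from 52669139 to 52672827, with a difference of 0.061 over 4 samples. For BCL6 it was on chromosome 7 from 150571677 to 150581787, with a difference of 0.086 over 4 samples. The genes at these regions were not assigned. The match used height alone and not width, with 26 candidate regions for BCL11A and 324 for each of PAX5 and BCL6.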

How the data were processed

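EZH2 ChIP-seq was analysed in NTKO and TKO cells, with 2 samples of each line. Per the study's methods, alignment was to hg18 with BWA, reads sharing a position were collapsed, and ChIPseeqer found peaks separately for every sample relative to input (2-fold difference, −log10 p of at least 15). The deposited signal columns are a peak's average read level and its height at the summit. The deposited score column holds each peak's log10 p and is printed here with its sign changed. The deposited percent column locates the summit within the peak. The lists do not give depth, and no counting interval was computed.

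Peaks with at least 1 bp within 10 kb of each start site were taken, and their positions counted from 1 in hg18. Percentiles are shares of the same list with a lower height. No hg18 annotation was used, so exons, introns and other B-cell factor genes were not assigned. Gene length and promoters came from RefSeq (GRCh38.p14), and strand from that table or, for CIITA, the GRCh37 annotation. Members and lists were chosen with earlier results of these data known. All 5 genes were named, with the closest region by height for the 3 whose tallest region was in at least 2 lists (BCL11A, PAX5 and BCL6). Window and joining functions were checked on simulated data. Run 2 was the main setting, as the study used it downstream. Alternatives were run 1, mixed runs, pairing by run, a −log10 p of at least 20, windows of 5 and 25 kb, summits within 10 kb, uncut peaks, mean levels and rescaled heights. Python 3.11.15, numpy 2.4.6, pandas 2.3.3 and matplotlib 3.10.9 were used.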

Additional observations from a re-analysis of the deposited data

How the results depend on the processing

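The number of genes with a peak stayed at 2 in NTKO cells and ranged from 3 to 4 in TKO cells over the alternatives run, EBF1 being the gene absent from TKO run 1. The −log10 p of at least 20 and the other windows were applied to run 2 alone. In TKO run 1 both PAX5 peaks were under 20, at 17.2 and 19.0. That threshold would have left only BCL11A and BCL6 with a peak there. The log2 NTKO to TKO ratio of bases covered over the 5 windows, -0.29 in run 2, was not stable: leaving out samples moved it between -0.85 (NTKO run 1 with TKO run 2) and 0.64 (NTKO run 2 with TKO run 1), with 0.088 in run 1 alone, and a 5 kb window gave -0.75. The median log2 height ratio of PAX5 and BCL6, 0.52, ranged from 0.071 (NTKO run 1 with TKO run 2) to 1.94 (NTKO run 2 with TKO run 1), and was 1.496 in run 1. At PAX5 the log2 height ratio turned to -0.14 with NTKO run 1 and TKO run 2 and reached 2.13 with NTKO run 2 and TKO run 1. BCL11A had no NTKO peak under any of these alternatives, but most of them could not have given one. They either removed peaks or left the NTKO run 2 list as it was. The nearest NTKO run 2 peak, 28.3 kb away, also lay outside the 25 kb window. The exchange for NTKO run 1 was the alternative free to differ. Library depth is unknown from the lists, so an absent peak says only that the threshold was not reached in that list. The cause of these shifts was not tested.

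Pairing NTKO and TKO samples of equal run number gave the values with a replicate block. The log2 ratio was then -0.10 for covered bases and 1.01 for height, and 2 genes in NTKO cells and 3 in TKO cells had a peak in both runs. No source says that a run number marks a shared batch, so the samples may share only a number. Over the 326 regions in all lists, deviations from the line means correlated between samples of the same run with r = 0.759. With 2 samples per line the crossed value, -0.759, is fixed as its opposite and adds no information. Whether samples of equal run number shared a batch was not tested. No test was run with or without the block, because the genes were chosen from these lists.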
